A study of Mus musculus with 2 samples.

Results

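The genes described here were the CXC chemokines Cxcl1, Cxcl2, Cxcl3, Cxcl5, Cxcl9, Cxcl10, Cxcl11, Cxcl16, Pf4 and Ppbp, 10 of the 55536 annotated genes in the deposited gene tables. They are a gene family picked out by symbol, by a rule that uses no measured value, though earlier results of these data were known when the family was chosen. They were joined to both deposited quantifications by gene identifier. All came from macrophages grown from the bone marrow of C57BL/6J mice and stimulated with lipid A at 100 ng/ml over 75 minutes. Lipid A is the membrane anchor of bacterial lipopolysaccharide and is sensed by the receptor TLR4. RNA of the cytosolic fraction was depleted of ribosomal RNA and sequenced as total RNA, in 2 libraries of 1 group that started from 1 µg of RNA each. The labels number these as biological replicates 1 and 2 and give them a single donor identifier. Age and sex are labelled as not collected. Nothing in the labels says that separate animals or cultures were used, so the SDs below (n = 2) may be technical. Unstimulated cells and other times were not analysed here, so each value is a level after lipid A and not an induction. With 1 group there was no comparison between conditions and no p-value was computed.

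CXC chemokines are small secreted proteins that guide leukocytes through G protein-coupled receptors. Members with a glutamate-leucine-arginine (ELR) motif before the first cysteines act mainly on CXCR2 and attract neutrophils. Members without it include the interferon-inducible ligands of CXCR3, which attract activated T cells and natural killer cells. In macrophages, lipid A reaches chemokine genes by a route that activates NF-kB and by another that activates IRF3 and leads to interferon beta.

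Replicate 1 had a total of 55736363 expected counts and replicate 2 a total of 50259425. All 10 macrophage markers examined reached a level of 1 TPM, a unit that divides counts by transcript length and scales each library to the same sum, led by Lyz2, lysozyme (4169 ± 82.3 TPM), the lysosomal glycoprotein gene Cd68 and the lipopolysaccharide co-receptor gene Cd14. Markers of T and NK cells and of B cells did not reach 1 TPM in any of 8 and 5 genes. One of 9 stromal and endothelial markers did (Kdr), as did 2 of 8 dendritic cell markers (Itgax and Ccr7) and 4 of 12 neutrophil markers, the highest being S100a9. In bulk RNA, fewer cells of a type and less RNA per cell cannot be told apart.

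The mRNA of this family was mostly that of neutrophil attractants. The 5 ELR members together held 68.4% of the family's summed TPM in replicate 1 and 78.4% in replicate 2 (73.4 ± 7.04%). Cxcl2 alone held 50.2% and 59.7%. Summed over the family, the level was 1681 TPM and 1422 TPM in the respective libraries, and 835 TPM and 535 TPM in the second quantification. Of the 10 members, 6 reached a mean of 1 TPM, and 6 reached it in each library. Over all 22028 protein-coding genes the share was 39.3%. In decreasing order of mean TPM, the members were Cxcl2, Cxcl1, Cxcl10, Pf4, Cxcl16, Cxcl3, Ppbp, Cxcl11, Cxcl9 and Cxcl5.

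Neighbours in that order were not all separable. The ranges over the libraries overlapped for Cxcl1 and Cxcl10, for Cxcl10 and Pf4, and for Ppbp and Cxcl11. Every other pair of neighbours kept the same order in both libraries.

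**Figure D1:**
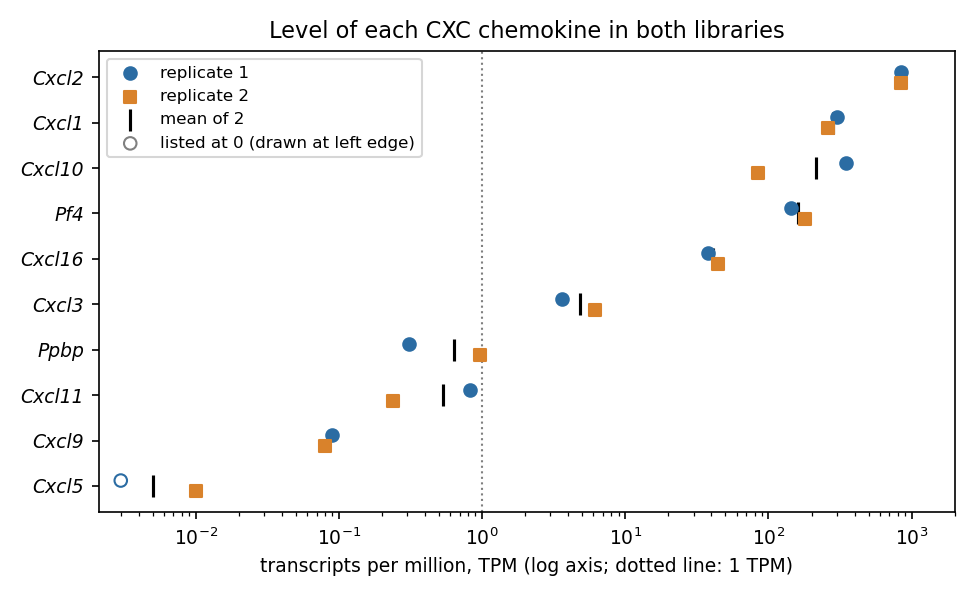
Level of each CXC chemokine gene in TPM, a unit per transcript length, on a log axis, with 1 symbol per library and a bar at the mean of 2. Cxcl2 lies near 847 TPM in both libraries, the symbols of Cxcl10 stand apart at 349 and 84.1 TPM, and 4 genes lie below 1 TPM.

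Cxcl1, Cxcl2 and Cxcl3, whose mRNA levels were very different, carry the same 11 letters upstream of their starts. The stretches are shown because these genes are the neutrophil attractants that macrophages are known to induce through NF-kB, and Cxcl10 because it is the interferon-inducible gene with the highest level. The first 3 are 120 bases long and the last is 250 bases long. All are on GRCm38.p6, the assembly of the RefSeq table they come from, and each is written 5′ to 3′ on the strand of its gene. The Cxcl2 stretch is chr5:90903751-90903870 on the plus strand, that of Cxcl1 chr5:90891121-90891240 on the plus strand, that of Cxcl3 chr5:90785981-90786100 on the plus strand and that of Cxcl10 chr5:92348890-92349139 on the minus strand. In the first 3, capitals mark GGGAATTTCCC, the longest stretch that all 3 have in common before the start, which matches the NF-kB consensus. In Cxcl10, capitals mark, in order, an interferon-stimulated response element (ISRE), a match to the NF-kB consensus, a pair of overlapping matches to that consensus, and an AP-1 site.
Cxcl2: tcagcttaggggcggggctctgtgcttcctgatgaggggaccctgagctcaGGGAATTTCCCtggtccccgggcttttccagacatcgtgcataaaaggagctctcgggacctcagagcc
Cxcl1: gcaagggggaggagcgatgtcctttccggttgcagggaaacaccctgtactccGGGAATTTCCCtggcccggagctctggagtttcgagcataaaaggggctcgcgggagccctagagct
Cxcl3: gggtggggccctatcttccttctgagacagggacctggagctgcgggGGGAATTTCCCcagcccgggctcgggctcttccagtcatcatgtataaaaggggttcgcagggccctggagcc
Cxcl10: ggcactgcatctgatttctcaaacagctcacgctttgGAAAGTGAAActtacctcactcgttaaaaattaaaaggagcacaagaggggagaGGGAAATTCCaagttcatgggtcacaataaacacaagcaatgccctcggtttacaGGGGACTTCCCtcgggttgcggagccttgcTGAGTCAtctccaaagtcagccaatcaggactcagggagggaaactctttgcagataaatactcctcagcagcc

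RefSeq windows reaching from 250 bases before to 50 bases after the start were found for 7 of the 10 members, not for Cxcl5, Cxcl11 and Cxcl16. Motifs were searched on both strands. The stretch began 97 bases before the RefSeq start in Cxcl2, 71 bases before it in Cxcl1 and 73 bases before it in Cxcl3. Of all 32817 windows, 14 held it, or 0.0427%. The longest stretch common to Cxcl1 and Cxcl2 before their starts was 14 bases, GGGAATTTCCCTGG, of which Cxcl3 shared the first 11 bases with each of them.

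The Cxcl10 window differed in its letters. It held matches to the looser NF-kB consensus, present in 8.46% of windows, from 159, 104 and 103 bases before the start. It also held the ISRE letters, GAAA and GAAA with any 2 bases between, present in 3.43% of windows, from 213 bases before the start, and the AP-1 letters TGANTCA, present in 7.81%, from 74 bases before it. Among the other members, AP-1 letters lay in the Cxcl9 and Ppbp windows, TATAAA (13.6% of windows) lay in those of Cxcl3, Cxcl9 and Ppbp, and none of the motifs searched lay in that of Pf4. These are matches of letters and not measured binding.

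The genes that carry the shared letters differed in level. Of the 14 genes with such a window, 11 had a level in these files and 4 of those reached 1 TPM, Cxcl2, Cxcl1, Cxcl3 and, at 1.03 TPM, Il16. The stretch was read from the first 3 of these, so they are no evidence about it. Among the other carriers with a level, Il16 alone reached 1 TPM. Over all 20566 genes with a window and a level, 34.0% reached 1 TPM.

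Cxcl2 (ENSMUSG00000058427.10, mm10 chromosome 5, 90903871 to 90905938, plus strand), a CXCR2 ligand that recruits neutrophils, was the most abundant member. It had 87141 expected counts in replicate 1 and 74054 in replicate 2, or 845 and 849 TPM (847 ± 2.74). Both libraries gave almost the same TPM in this first quantification, and its mean there ranked 25 among 22028 protein-coding genes. In the second quantification Cxcl2 had 424 TPM in replicate 1 and 323 TPM in replicate 2. After scaling of the expected counts, replicate 2 stood at -0.04 on the log2 scale relative to replicate 1. The exact 95% counting interval ran from -0.054 to -0.026.

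Cxcl1 (ENSMUSG00000029380.11, chromosome 5, 90891241 to 90893115, plus strand), the other abundant CXCR2 ligand, had 25698 and 18807 expected counts, or 302 and 259 TPM (280.1 ± 30.2). It was somewhat higher in replicate 1, by 1.19-fold in scaled counts. Its mean TPM ranked 107. The Cxcl2 mean was 3.02 times that of Cxcl1, with no overlap between the libraries.

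Cxcl3 (ENSMUSG00000029379.10, chromosome 5, 90786103 to 90789600, plus strand), the third ligand of this neutrophil-attracting group, was far lower. It had 336 and 505 expected counts, or 3.59 and 6.14 TPM (4.87 ± 1.80). Replicate 2 was higher by 1.72-fold, with a log2 counting interval from 0.58 to 0.99. The mean TPM of Cxcl2 was 174 times that of Cxcl3, and both carry the letters shown above.

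Ppbp (ENSMUSG00000029372.7, chromosome 5, 90768518 to 90770063, plus strand), the precursor of the platelet chemokine CXCL7, had 31 and 82 expected counts. That was 0.31 and 0.97 TPM, below 1 TPM in both libraries. Cxcl5 (ENSMUSG00000029371.7, chromosome 5, 90759360 to 90761624, plus strand), a neutrophil attractant made by epithelial cells among others, had 0 and 1 counts. A count of 0 allows up to 3 counts, or 0.0172 TPM, in replicate 1. The second quantification gave it 3.95 and 2.68 estimated counts. Cxcl5 was thus at or near the limit of detection in both quantifications. Such floors, like the intervals, cover counting error only.

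Cxcl10 (ENSMUSG00000034855.13, chromosome 5, 92346638 to 92348889, minus strand), a CXCR3 ligand, was the member whose libraries stood farthest apart among those above 1 TPM. It had 35410 counts in replicate 1 and 7282 in replicate 2, or 349 and 84.1 TPM (216.5 ± 187). Replicate 1 was 4.25-fold higher, with a counting interval from 4.14 to 4.36. The gene ranked 80 among protein-coding genes in replicate 1 and 425 in replicate 2. Its share of the family's TPM was 20.8% in replicate 1 and 5.91% in replicate 2.

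Cxcl11 (ENSMUSG00000060183.6, chromosome 5, 92359544 to 92365485, minus strand), another CXCR3 ligand whose gene GENCODE lists as a polymorphic pseudogene, had 141 and 34 counts. That came to 0.82 and 0.24 TPM, again with replicate 1 higher, by 3.59-fold (2.48 to 5.44). Cxcl9 (ENSMUSG00000029417.9, chromosome 5, 92321347 to 92328079, minus strand), a CXCR3 ligand known for its response to interferon gamma, had 28 and 20 counts, or 0.09 and 0.08 TPM. Its log2 counting interval, from -1.20 to 0.59, reached to both sides of 0. At these counts a change smaller than that interval was not detectable.

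**Figure D2:**
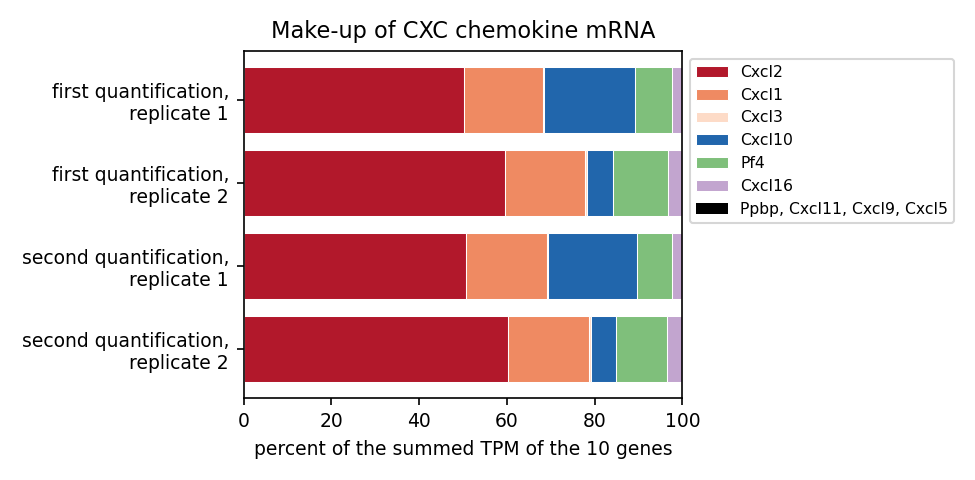
Make-up of the summed TPM of the 10 genes, in percent, for each library under both deposited quantifications. In the first quantification the Cxcl10 band spans 20.8% in replicate 1 and 5.91% in replicate 2 and the Cxcl2 band 50.2% and 59.7%, and in the second the Cxcl10 band spans 20.3% and 5.85%.

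Pf4 (ENSMUSG00000029373.7, chromosome 5, 90772435 to 90773383, plus strand) encodes platelet factor 4, a chemokine stored in platelet granules that binds heparin. It had 5602 and 5973 counts, or 143 and 179 TPM (161 ± 25.4), and ranked 208 among protein-coding genes. Replicate 2 was 1.22-fold higher in scaled counts. None of 10 platelet and megakaryocyte markers reached 1 TPM, and together they summed to 0.77 TPM in replicate 1 and 1.10 TPM in replicate 2. The highest were Clec1b, the podoplanin receptor (0.290 TPM), Treml1 (0.150 TPM) and, at 0.135 TPM each, the integrin chain gene Itga2b and the von Willebrand factor receptor gene Gp1ba, and none of the 10 was at 0 in both libraries. Pf4 was thus above 100 TPM in libraries in which the 10 platelet markers and Ppbp were each below 1 TPM.

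Cxcl16 (ENSMUSG00000018920.11, chromosome 11, 70453983 to 70459984, minus strand) is made as a transmembrane protein that binds CXCR6 and also acts as a scavenger receptor. It had 9069 and 9453 counts, or 38.1 and 44.1 TPM (41.1 ± 4.26), higher in replicate 2 by 1.19-fold. The genes of its known sheddases, which release it from the cell surface, were of the same order, with Adam17 at 22.6 and 30.0 TPM and Adam10 at 14.2 and 17.8 TPM. Cxcl16 was the only one of the 10 members outside chromosome 5.

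The other 9 members lay in a pair of clusters on chromosome 5. Cxcl5, Ppbp, Pf4, Cxcl3, Cxcl1 and Cxcl2 lay in that order on the plus strand within 146.6 kb, from 90759360 to 90905938. Along these 6 genes the mean level ran from 0.00500 TPM at Cxcl5 to 847 TPM at Cxcl2, with Pf4 at 161 TPM between Ppbp at 0.640 TPM and Cxcl3 at 4.87 TPM. Cxcl15, which lies between Cxcl3 and Cxcl1, was listed at 0 counts in both libraries. Cxcl9, Cxcl10 and Cxcl11 lay on the minus strand within 44.1 kb, separated from the first cluster by 1415 kb, and of them Cxcl10 alone was above 1 TPM. Adjacent genes could thus differ widely in level, the mean of Pf4 being 252 times that of Ppbp and the mean of Cxcl10 2547 times that of Cxcl9.

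Some of these genes overlap others on the opposite strand, and the strand used in counting is not given in the sources used here. Art3 spans Cxcl10 and Cxcl11 and had 9.01 and 11.0 counts, few beside those of Cxcl10. Gm2673 lies over Cxcl11 and had 0 counts. Zmynd15 overlaps Cxcl16 and had 147 and 176 counts against 9069 and 9453 for Cxcl16. Reads of such partners cannot be told apart without strand, which matters most for Cxcl11. The deposited posterior SD of the count was at most 0.0455% of it in every member with counts, which is the authors' own estimate of how uncertain the assignment of reads was.

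Set against each other, the libraries differed in some members and not in others. A ratio was taken for the 9 members that averaged at least 10 counts. Of these, 4 differed by more than 1.5-fold, against 14.0% of all 13392 genes with such a count. Among the 10091 genes with a mean of 100 or more the share was 4.85%. That share is no like measure for all 4, since Ppbp and Cxcl11 averaged only 56.5 and 87.5 counts. Cxcl10 and Cxcl11 were more than 1.5-fold higher in replicate 1, as were 3.53% of the 13392 genes. Cxcl3 and Ppbp were more than 1.5-fold higher in replicate 2, as were 10.5%. The other 5 lay within 1.5-fold. The median log2 ratio of the 9 was -0.04, beside -0.0045 for all genes. Each ratio compares 1 library with 1 library, so it describes these libraries and not a condition.

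Cxcl10 and Cxcl11 were thus lower in replicate 2, and most early interferon-stimulated genes showed the same direction. Ifnb1, which encodes interferon beta, had 106 TPM in replicate 1 and 48.1 TPM in replicate 2, a 2.28-fold difference. Of 10 early interferon-stimulated genes, 7 were more than 1.5-fold higher in replicate 1, beside 3.53% of all genes that averaged at least 10 counts. By any fold, 0 of the 10 were higher in replicate 2, and their median log2 ratio was -1.15. Rsad2, the antiviral protein viperin, had 347 and 131 TPM. Isg15, a ubiquitin-like modifier, had 137 and 66.9 TPM, and the antiviral gene Ifit2 had 108 and 48.6 TPM. Among the 9 genes of interferon beta, its receptor and its transcription factors, Ifnb1 was the one that differed by more than 1.5-fold. The median log2 ratio of the 9 was -0.053. The receptor gene Ifnar1 fell just short of the limit in the other direction, 1.49955-fold higher in replicate 2. Irf7 was 1.42-fold higher in replicate 1. Irf1, a transcription factor of interferon responses, had 112 ± 7.79 TPM.

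**Figure D3:**
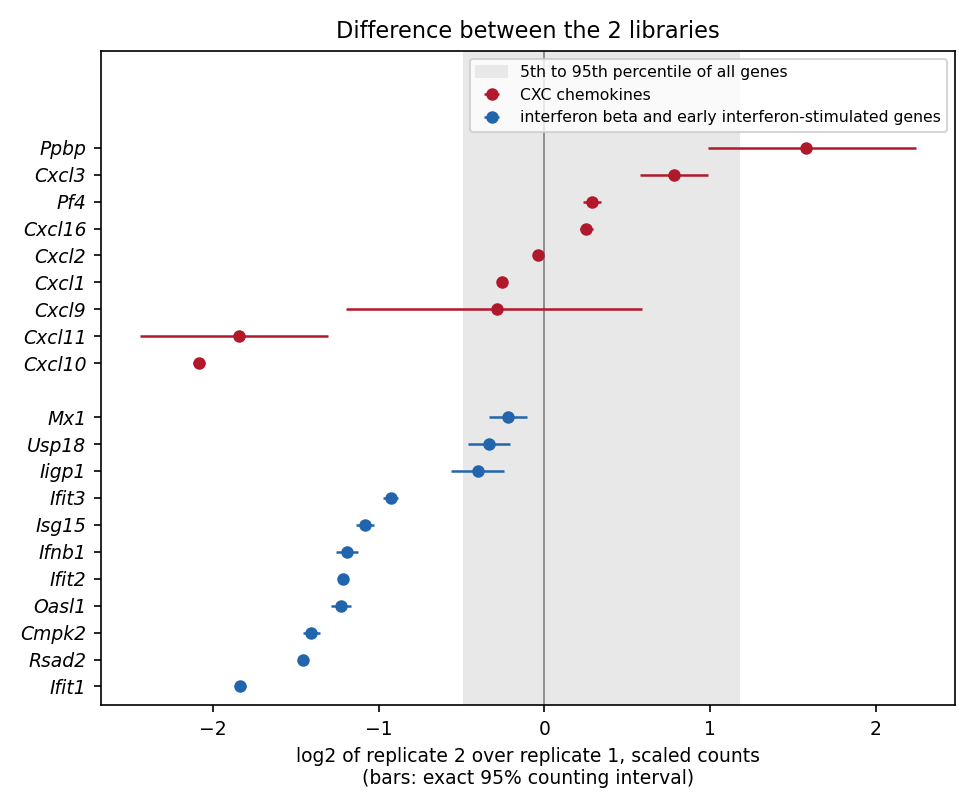
Log2 ratio of replicate 2 to replicate 1 from scaled counts, with exact 95% counting intervals, for 9 CXC chemokines, Ifnb1 and 10 early interferon-stimulated genes. The grey band runs from the 5th to the 95th percentile of all genes that averaged at least 10 counts, -0.48 to 1.18, and Cxcl10 at -2.09 and Cxcl11 at -1.84 lie to its left beside Ifit1 at -1.83.

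Genes of the NF-kB route had a median log2 ratio of 0.051, beside -1.15 for the early interferon-stimulated genes. All 10 NF-kB subunit and inhibitor genes listed reached 1 TPM. Of them 0 differed by more than 1.5-fold, which is near the share of 4.85% among all genes with a mean of 100 or more counts. Their log2 ratios ran from -0.38, for the subunit gene Rel, which was 1.30-fold higher in replicate 1 (1.28 to 1.32), to 0.26 for Bcl3. Together they summed to 1075 and 1076 TPM. Nfkbia had 561 ± 14.5 TPM, Nfkbiz, which encodes an inducible nuclear cofactor, 240.0 ± 25.2 TPM, and Nfkbib 47.6 ± 0.566 TPM. Beside them, Cxcl2 was within 1.03-fold and Cxcl1 within 1.19-fold between libraries, while Cxcl3 was 1.72-fold higher in replicate 2.

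The levels of Cxcl2 and Cxcl1 over both libraries were closest to those of the following protein-coding genes, by Euclidean distance of log2(TPM + 0.1) over n = 2 libraries. For Cxcl2 these were Il1b, which encodes interleukin-1 beta (924 and 902 TPM, distance 0.157), and the lipid carrier gene Fabp5 (976 and 852 TPM, 0.209). For Cxcl1 the nearest was Myl6, a myosin light chain gene (293 and 272 TPM, 0.0851). For Cxcl10, Rsad2 was nearest at 0.639. Nearness in 2 libraries says that the levels were alike and nothing more.

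Most of each chemokine's RNA was assigned to its main coding transcript. GENCODE lists 25 transcripts for the 10 genes, and Ppbp has a single one. The leading transcript held 99.7% and 98.8% of the TPM of Cxcl1, 99.5% and 98.0% of that of Cxcl2, 99.4% and 98.2% of that of Cxcl3, and 99.1% and 97.4% of that of Cxcl10. The shares were 93.9% and 95.8% for Cxcl11 and 100% for Cxcl9 and Ppbp, and lower for Pf4 and Cxcl16. The coding transcript of Cxcl16 held 69.5% in replicate 1 and 79.0% in replicate 2, and a transcript annotated for nonsense-mediated decay held 28.1% and 17.0%. As a share of counts the latter held 14.3% and 8.11%, and in the second quantification 27.1% and 14.7% of TPM.

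Pf4, whose leading transcript held 86.7% and 87.9%, had a minor transcript on which the quantifications differed. A short transcript of 360 bases, annotated with a retained intron, held 13.2% and 11.7% of the gene's TPM in the first quantification, from 316 and 295 counts. In the second quantification it had 0 in both libraries, and the main coding transcript held 99.95% and 99.7%. The division of Pf4 reads between its transcripts is thus uncertain. The gene's count does not rest on it, but its TPM, rank and share of the family do in part. TPM divides by transcript length, and the short transcript held only 5.64% and 4.93% of the gene's counts.

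Transcripts annotated with a retained intron took a larger share of the counts in replicate 2 for 5 of the 6 members that could be compared, as they did for 79.7% of 5431 protein-coding genes with such transcripts. The share was 0.413% in replicate 1 and 1.86% in replicate 2 for Cxcl2, 0.597% and 2.63% for Cxcl1, 0.803% and 3.69% for Cxcl10, and 1.77% and 7.20% for Cxcl3. In these 4 genes the share was 4.06-fold to 4.60-fold higher in replicate 2, although the genes' own levels differed between the libraries in different directions. For Cxcl16 the share was 1.69% and 2.63%, and for Pf4 it was 5.64% and 4.93%. The Pf4 share rests on the short transcript that the second quantification put at 0 in both libraries. The members' count lay near that of all genes. The median share over those genes was 0.571% and 1.40%. The second quantification gave 0.280% and 1.98% for Cxcl2, 1.07% and 4.66% for Cxcl10, and 3.61% and 7.61% for Cxcl16.

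RNAs known to stay in the nucleus moved with this share. All 5 measured of 6 listed were more than 1.5-fold higher in replicate 2, with a median log2 ratio of 2.17. Of all genes that averaged at least 10 counts, 10.5% were. Summed, they had 175 and 871 TPM, of which Malat1 made up 158 and 799 TPM, and Meg3 was at 0 in both. Some markers of other cell types were also higher in replicate 2. More than 1.5-fold higher there were 4 of 7 measured neutrophil markers and 4 of 8 dendritic cell markers, beside the same 10.5% of all genes. Among the former were Mpo (3.15-fold, from 20 and 56 counts) and Ltf (2.73-fold, from 74 and 177). The summed neutrophil markers had 32.9 and 35.7 TPM, with Ly6g at 0, and the dendritic ones 2.62 and 3.83 TPM. Of 4 measured platelet markers 2 were higher there, Treml1 (3.15-fold, from 8 and 23 counts) and Itga2b (3.06-fold, from 12 and 33). Clec1b was 1.67-fold higher in replicate 1, but its log2 counting interval, from -1.76 to 0.19, reached to both sides of 0. The part of the nuclear RNAs and of these markers in the retained-intron shares and in the differences of Cxcl3 and Ppbp was not tested. Cxcl10 and Cxcl11 went the other way.

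**Figure D4:**
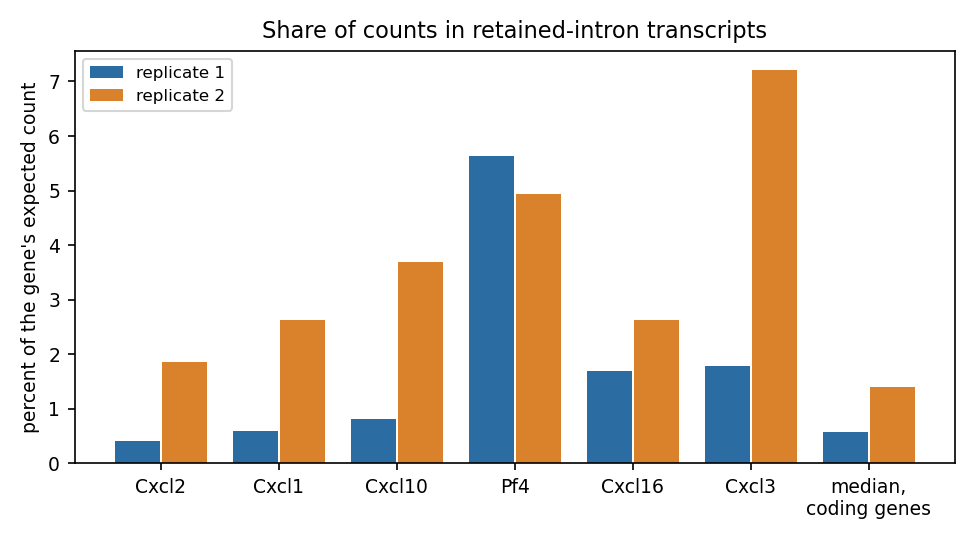
Percent of each gene's expected count assigned to its transcripts annotated with a retained intron, for 6 CXC chemokines and, at the right, the median of 5431 protein-coding genes, with 1 bar per library. Replicate 2 is higher in Cxcl2, Cxcl1, Cxcl10, Cxcl16 and Cxcl3, by 4.60-fold in Cxcl10, and lower in Pf4.

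Chemokine mRNAs of the neutrophil-attracting group are known for AU-rich elements in the 3′ UTR, which bind proteins such as tristetraprolin and shorten the life of the message. The pentamer ATTTA occurred 11 times in the 734 bases of 3′ UTR of the leading Cxcl2 transcript, 7 times in the 592 bases of Cxcl1, 5 times in the 645 bases of Cxcl3 and 5 times in the 1111 bases of Cxcl5. The other 6 members had 1 to 3. Of 8583 protein-coding genes at 1 TPM or more with an annotated 3′ UTR, 19.3% had 5 or more.

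The density was 15.0 per kb in Cxcl2, 11.8 in Cxcl1 and 7.75 in Cxcl3, beside a median of 1.28 per kb over the same genes. Pf4 had 8.13 per kb from 1 match in 123 bases. The longer motif TTATTTATT, which contains the pentamer, occurred 4 times in Cxcl2, 2 times in Cxcl1 and once in Cxcl3, and 6.77% of those genes held it at all. Cxcl5 and the other 6 members had 0. The genes of AU-rich element binding proteins were all expressed, 7 of 7 at 1 TPM or more, led by Zfp36, which encodes tristetraprolin, at 348 ± 1.44 TPM and Zfp36l1 at 126 ± 0.735 TPM. A motif match is a property of the annotated sequence, and mRNA decay was not measured.

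Genes of CXC chemokine receptors were mostly below 1 TPM in the macrophages themselves. Of 8 listed, 2 reached it in the first quantification, beside 39.3% of all protein-coding genes. Cxcr4 had 18.6 and 13.0 TPM, but its ligand, the homeostatic chemokine CXCL12, is not among the members described here. Cxcr3, the receptor of CXCL9, CXCL10 and CXCL11, had 1.08 and 1.33 TPM. In the second quantification Cxcr3 was below 1 TPM, at 0.538 and 0.501 TPM. Cxcr2, the receptor of the ELR members, had 4 and 11 counts, and Cxcr6, that of CXCL16, had 5 and 14 counts. Cxcr1 had 0 and 1 counts, Cxcr5 0 and 4, and the atypical receptor genes Ackr1 and Ackr3 had 0 and 1 and 0 and 2. Levels of Cxcr1, Cxcr5, Ackr1 and Ackr3 in replicate 1 were thus not detectable at this depth. The family's highest ligands, Cxcl2 and Cxcl1, thus had means of 847 and 280.1 TPM where the mRNA of their receptor Cxcr2 averaged 0.025 TPM.

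The other CXC chemokine genes were near 0. Cxcl12, a homeostatic chemokine of stromal cells, had 2 and 4 counts, and Cxcl14 had 7 and 11. Cxcl13, a B cell attractant, and Cxcl17 were listed at 0 in both libraries, as was Cxcl15. None of these 5 genes reached 1 TPM.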

How the data were processed

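Members were matched by symbol to gene and transcript identifiers; members and gene lists were chosen with earlier results of these data known. The authors deposited expected counts, estimated per gene and transcript and not always whole, TPM, and each transcript's percent of its gene's TPM, per the file headers; a further deposited column, the posterior SD, gives the uncertainty of a count. A second deposited quantification, made without the alignments, gives estimated counts and TPM per transcript and was summed per gene. The deposited readme files name mm10 and annotation M21; the aligner and the quantifier: not given in the sources used here. Entries other than annotated genes (26345, with 0.251% and 0.204% of the count) were left out of library sizes, and 0 columns belonged to other samples.

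Expected counts were rounded and scaled by TMM in edgeR 4.0.16 (R 4.3.3) over genes that averaged at least 10 counts, with DESeq2 1.42.0 as the alternative scaling. Ratios of the libraries, replicate 2 over replicate 1, used scaled counts plus 0.5, with exact Clopper-Pearson 95% counting intervals, and differences were counted above 1.5-fold. With 2 libraries of 1 group no test exists and no model of spread was fitted. The calculation of ratios was tested on simulated data. Motifs were read from GENCODE M21 transcripts and RefSeq promoter windows on GRCm38.p6. Other steps ran in Python 3.11.15 (pandas 2.3.3, numpy 2.4.6, matplotlib 3.10.9, scipy 1.17.1). Named are all members, up to 3 of the most abundant genes of each list, every receptor, and the 2 protein-coding genes nearest in level to each of the 3 most abundant members; Ifit1, Meg3, Il16, Rel, Bcl3, Mpo, Ltf, Ly6g and genes named for an overlap were chosen after their values were seen, and so was the stretch common to Cxcl1, Cxcl2 and Cxcl3 as a motif. Some genes that this rule names are not reported here.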

Additional observations from a re-analysis of the deposited data

How the results depend on the processing

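The number of members at 1 TPM or more was 6 under the second quantification, posterior-mean TPM and without each replicate, 8 when TPM was rescaled to nuclear-encoded protein-coding genes or the threshold was 0.5 TPM, and 5 at 5 TPM. Without each replicate the ELR share ran from 68.4% to 78.4% and the Cxcl2 share from 50.2% to 59.7%. The median log2 ratio of the measured members, -0.04, was -0.086 with library totals and -0.134 in the second quantification. It was 0.088 with no filter on low counts, where Cxcl5 joins the members and the sign differs. No single member's ratio of scaled counts changed sign under these settings, DESeq2 size factors or a pseudocount of 5. The order of the libraries in TPM was less stable. In the second quantification Pf4 had 66.5 and 62.3 TPM and Cxcl16 19.4 and 17.8 TPM, higher in replicate 1, unlike in the first. The number of members more than 1.5-fold apart was 4 with DESeq2 size factors, library totals, the second quantification and a pseudocount of 5, and 5 with no filter. Mean TPM depends on what it is scaled to: Cxcl2 had 847 TPM as deposited, 373 in the second quantification and 3898 over nuclear-encoded protein-coding genes. In the second quantification the share of the leading transcript was 86.2% instead of 100% for Cxcl9 and 99.8% instead of 87.3% for Pf4. Depth limits Cxcl5, Cxcl9, Cxcl11 and Ppbp, with fewer than 150 counts a library.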
